A study of Homo sapiens with 13 samples.

Results

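Krüppel-like factors (KLF) are transcription factors that bind GC-rich and CACCC DNA elements through zinc fingers at their C-terminal end, and 10 genes of the family (KLF2, KLF3, KLF4, KLF5, KLF6, KLF7, KLF9, KLF10, KLF11 and KLF13) were followed by their gene symbol in both count tables. They are 10 of the 61546 genes listed. The cells were RUES2, an established line of human embryonic stem cells (hESCs), carrying a GFP::SMAD4 fusion in every group. In the time series all 7 libraries were labelled with 100 ng/mL BMP4, 5 µM IWP2 (an inhibitor of Wnt secretion) and RI (ROCK inhibitor), with 0 h sampled by 2 libraries and 4, 12, 20, 28 and 42 h by 1 each. In the dose response 5 libraries received the same 3 agents for 5 h together with 0, 10, 30, 100 or 300 nM of the BMP receptor inhibitor LDN-193189 (LDN), and 1 library of untreated cells was kept in mTeSR medium for 5 h. The time series asks how each gene changes while cells differentiate, and the dose response asks how it depends on the level of BMP signaling soon after treatment.

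The family falls into groups by the partners its proteins bind. KLF3 binds the corepressor CtBP and is known mainly as a repressor. KLF2, KLF4, KLF5, KLF6 and KLF7 are known mainly as activators, and KLF2, KLF4 and KLF5 support self-renewal in naive mouse pluripotent stem cells. KLF9, KLF10, KLF11 and KLF13 bind the corepressor SIN3A, and KLF10 and KLF11 were first described as genes induced early by TGF-β. In BMP signaling, receptors phosphorylate SMAD1/5/9, which enter the nucleus with SMAD4.

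CPM below is the count of a gene scaled to its library total. Library totals were 37957385 to 71333471 counts in the time series and 15600931 to 33989998 in the dose response, where the lowest was the untreated library. The 0 h libraries differed far beyond sampling noise (chi-square per degree of freedom 107 over 23882 genes) and were counted as 2. The labels do not say that they came from separate cultures, so their spread may be technical. Mitochondrial genes took 7.60% of counts in replicate 1 at 0 h and 7.89% in the untreated library, against 2.01 to 4.49% in the other libraries, and the part of this in any result was not tested. The summed level of 6 pluripotency markers was 2962 to 3454 CPM at 0 h and 1263 to 1800 at 28 and 42 h, all 6 being detected in every library. Most of the late sum was POU5F1, at 1457 CPM at 28 h and 1145 CPM at 42 h. Both values lay between its 0 h levels of 1003 and 1721 CPM. SOX2, NANOG, PRDM14, TDGF1 and DPPA4 were all below both 0 h libraries at 28 and 42 h. SOX2 went from 389 and 375 CPM at 0 h to 11.6 CPM at 42 h, and DPPA4 from 757 and 604 CPM to 93.6 CPM. The summed level of 6 amnion-like markers went from 12.0 to 12.2 CPM at 0 h to 2398 to 4383 CPM at 28 and 42 h. Marker sums of primitive streak, endoderm and neural ectoderm were at most 4.69, 4.68 and 2.005 CPM in any library. Single markers moved within these sums. EOMES went from 0.211 and 0.308 CPM at 0 h to 3.52 CPM at 20 h and 0.294 CPM at 42 h. FOXA2 went from 3.19 and 2.92 CPM at 0 h to 0.154 CPM at 4 h. In the dose response EOMES was at 2.71 CPM without LDN and 0.128 CPM in untreated cells, and FOXA2 at 0.0348 and 3.97 CPM. The sums of 4 fibroblast markers were 107 to 223 CPM. Of these COL1A1 was at 83.0 to 209 CPM, DCN at most at 0.0221 CPM and COL3A1 at most at 0.278 CPM. PDGFRB went from 6.24 and 7.32 CPM at 0 h to 70.4 CPM at 20 h and 41.9 CPM at 42 h. In the dose response PDGFRB was highest without LDN (15.6 CPM), lower with 300 nM (8.84 CPM) and lowest in the untreated library (7.82 CPM). The part of PDGFRB, EOMES, FOXA2 and the pluripotency and amnion-like sums, which moved with time, in the results below was not tested. The libraries are bulk samples, so fewer cells of a type and less RNA per cell cannot be told apart. The time series was made from rRNA-depleted and the dose response from polyA-selected RNA with different extraction kits, so levels were compared only within each experiment.

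KLF3 and KLF10 had no promoter entry, and the windows of KLF6 and KLF11 overlap annotated UTRs. Promoters of 5 other members are shown. They include those of KLF4, KLF5 and KLF2, which rose strongly, and of KLF13, which fell with signaling and rose with time. They also include that of KLF9, whose mean stayed under the 1 CPM filter. Each is the 250 bases before a RefSeq start site (GRCh38.p14), written 5′ to 3′ on the strand of the gene, and capitals mark the CACCC box (CACCC or GGGTG) and the GC box (GGGCGG or CCGCCC), the elements that KLF and SP proteins bind. Boxes can overlap, as CCGCCC and CACCC do once in KLF13. The KLF2 window lies at chr19:16324576-16324825 (+), that of KLF4 at chr9:107489770-107490019 (-), that of the second KLF5 start site at chr13:73058755-73059004 (+), that of KLF9 at chr9:70414658-70414907 (-) and that of KLF13 at chr15:31326585-31326834 (+). The windows of KLF4 and KLF5 lie inside the GENCODE span of the gene, outside annotated UTRs.
KLF2: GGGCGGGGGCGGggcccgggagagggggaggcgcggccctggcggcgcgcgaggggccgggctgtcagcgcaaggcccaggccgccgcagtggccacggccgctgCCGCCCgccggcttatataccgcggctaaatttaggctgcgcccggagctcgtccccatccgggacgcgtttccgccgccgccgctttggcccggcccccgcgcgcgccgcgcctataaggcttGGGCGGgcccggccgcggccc
KLF4: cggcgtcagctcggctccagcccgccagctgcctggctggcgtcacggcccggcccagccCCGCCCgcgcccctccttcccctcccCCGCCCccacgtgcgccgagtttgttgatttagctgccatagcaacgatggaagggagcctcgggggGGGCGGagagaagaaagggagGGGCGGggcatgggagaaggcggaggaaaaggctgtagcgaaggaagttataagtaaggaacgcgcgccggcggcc
KLF5: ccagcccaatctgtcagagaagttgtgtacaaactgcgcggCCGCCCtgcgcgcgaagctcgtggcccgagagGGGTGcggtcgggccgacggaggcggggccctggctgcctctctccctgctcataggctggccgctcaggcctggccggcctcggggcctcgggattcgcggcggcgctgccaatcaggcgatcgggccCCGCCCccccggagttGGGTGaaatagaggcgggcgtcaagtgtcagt
KLF9: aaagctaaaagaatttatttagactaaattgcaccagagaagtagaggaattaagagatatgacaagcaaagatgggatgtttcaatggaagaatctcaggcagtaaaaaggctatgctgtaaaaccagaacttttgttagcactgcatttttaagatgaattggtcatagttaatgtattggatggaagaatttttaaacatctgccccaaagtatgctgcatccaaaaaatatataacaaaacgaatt
KLF13: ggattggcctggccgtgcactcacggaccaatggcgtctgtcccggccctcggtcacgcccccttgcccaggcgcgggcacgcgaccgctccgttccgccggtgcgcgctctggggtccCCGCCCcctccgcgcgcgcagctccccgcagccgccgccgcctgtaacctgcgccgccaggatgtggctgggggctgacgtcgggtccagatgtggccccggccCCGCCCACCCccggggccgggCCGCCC
KLF2 and KLF4 each held 4 GC boxes and 0 CACCC boxes, the KLF5 window shown held 2 of each, and KLF13 held 3 GC boxes and 1 CACCC box. KLF9 held 0 of either. The first KLF5 start site, at chr13:73054726-73054975 (+) and not shown, held 0 GC boxes and 1 CACCC box. Of 35116 RefSeq promoter windows of this length, 42.6% held a GC box and 54.7% a CACCC box, on either strand. Of motifs bound by SMAD proteins, GGCGCC was in 0 of these 5 windows (16.4% of all windows) and CAGAC or GTCTG was in KLF13 alone, at 1 position (38.0% of all windows). Among member windows not shown, GGCGCC was at start site 3 of KLF7 (1 position). CAGAC or GTCTG was at start site 4 of KLF7 (1 position) and start site 1 of KLF11 (2 positions). These matches describe the letters only.

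The 10 genes lie on 8 chromosomes (GRCh38, GENCODE 44). KLF2 is at chr19:16324826-16328685, KLF3 at chr4:38664197-38701517, KLF4 at chr9:107484852-107490482, KLF5 at chr13:73054976-73077541 and KLF6 at chr10:3775996-3785281. KLF7 is at chr2:207074137-207173856, KLF9 at chr9:70384604-70414657, KLF10 at chr8:102648784-102655725, KLF11 at chr2:10042849-10054836 and KLF13 at chr15:31326835-31435665. Exons of KLF3, KLF4, KLF7 and KLF11 overlap those of a noncoding gene on the opposite strand, and whether the counting used strand is not given in the sources used here. These neighbours were low where the table lists them (KLF3-AS1 at most 3.55 CPM, those of KLF7 and KLF11 at most 0.0790 CPM).

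Over 42 h, 6 of the 9 members tested rose with time (KLF2, KLF3, KLF4, KLF5, KLF6 and KLF13) and 0 fell, by the slope of log2 level on hours with adjusted p under 0.05 (edgeR quasi-likelihood test, Benjamini-Hochberg adjustment over 15976 genes). Over all genes tested 36.7% were called, 19.2% rising and 17.5% falling. A test of a linear and a quadratic term together, which also takes a rise followed by a fall, called 7 of 9 members, adding KLF10, against 47.7% of all genes. The median slope of the 9 members was 0.04 per h on the log2 scale, against 0.00 for all genes. KLF9 did not pass the filter of a mean of 1 CPM and was not tested. It was at 0.975 and 0.547 CPM at 0 h and lower in all later libraries. KLF2, at 0.573 to 1.24 CPM up to 12 h, passed the filter through its higher libraries from 20 h on. The filter thus keeps a low gene that rises and drops one that falls, so the counts of 6 and 0 depend on it in part.

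KLF4 was higher from 4 h on and highest at 28 h. Both 0 h libraries were near each other, with 2.56 and 2.61 CPM, and were followed by 7.57, 9.87, 14.3, 17.5 and 12.3 CPM in the libraries of 4, 12, 20, 28 and 42 h. All later libraries lay above both 0 h libraries, and the 42 h library was below those of 20 and 28 h. With TMM scaling the 42 h library (14.2 CPM) was near that of 20 h (14.3 CPM). In FPKM the 0 h libraries were further apart, at 1.05 and 1.71 FPKM. The 0 h mean was 2.58 ± 0.04 CPM (SD, n = 2). The 4 h level was 2.92-fold that mean (95% counting interval 2.50 to 3.42) and the 42 h level 4.74-fold (4.13 to 5.43). The time slope was 0.06 ± 0.02 per h (log2, SE, edgeR adjusted p = 0.0201), and both terms together gave an adjusted p of 0.000300. The linear call was lost without replicate 1 at 0 h, replicate 2 at 0 h or the 28 h library (adjusted p 0.0640, 0.0517 and 0.0523), while the call of both terms held without any single library. The processed copy KLF4P1, whose sequence is close to that of KLF4, was listed at 0.229 to 0.949 CPM in the time series. Its mean was 0.507 CPM at 0 h, beside 2.58 CPM for KLF4, and its level was 0.229 CPM at 42 h, beside 12.3 CPM. Some reads could be shared between them, and the part of this in the KLF4 ratios was not tested.

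KLF5 and KLF2 rose later. KLF5, which acts in epithelial and trophoblast cells, stood at 3.45 and 2.14 CPM at 0 h, followed in the same order of times by 1.74, 4.66, 10.8, 24.3 and 14.8 CPM. It was below both 0 h libraries at 4 h and above them from 12 h on. The 42 h level was 5.28-fold the 0 h mean (4.62 to 6.03), and the slope was 0.09 ± 0.02 per h (log2, SE, edgeR adjusted p = 0.00477).

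KLF2, best known from endothelial cells, measured 0.843 and 0.869 CPM at 0 h, and 1.24, 0.573, 2.18, 5.43 and 4.67 CPM from 4 to 42 h. The 3 libraries from 20 h on lay above all earlier ones. The 42 h level was 5.41-fold that at 0 h (4.28 to 6.83), and the slope was 0.08 ± 0.01 per h (log2, SE, edgeR adjusted p = 0.00547). The summed level of 4 endothelial markers was 12.4 to 12.8 CPM at 0 h and 1.68 to 6.08 CPM at 28 and 42 h. TEK made up most of it, with 12.6 and 12.2 CPM at 0 h and 1.39 CPM at 42 h. CDH5 went from 0.0527 and 0.112 CPM at 0 h to 0.294 CPM at 42 h, while PECAM1 and EMCN were at most 0.161 and 0.0508 CPM in the time series. The part of these markers in the KLF2 result was not tested.

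KLF6, a widely expressed early response gene, was at 41.7 and 42.5 CPM at 0 h, and at 52.4, 47.2, 73.2, 131 and 130.0 CPM from 4 to 42 h. On library totals it held a plateau over the last 2 libraries, which stood above all others. With TMM scaling, which the slope uses, it was at 135 CPM at 28 h and 150 CPM at 42 h. The 42 h level was 3.09-fold that at 0 h (2.98 to 3.20), and the slope was 0.05 ± 0.01 per h (log2, SE, edgeR adjusted p = 0.000629). This call held in all 13 alternatives run for the linear trend, as did those of KLF2 and KLF5.

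KLF3 reached its highest level in the middle of the series. It began at 33.7 and 27.9 CPM and went through 38.2, 64.5, 69.0 and 59.8 to 53.3 CPM at 42 h. The 5 later libraries were all above both 0 h libraries, with a peak 2.24-fold the 0 h mean of 30.8 ± 4.07 CPM (SD, n = 2). The slope was 0.03 ± 0.01 per h (log2, SE, edgeR adjusted p = 0.0374), and both terms together gave an adjusted p of 0.00136. The linear call was lost on library totals, with FPKM and without replicate 1 or 2 at 0 h, 4 h or 28 h (adjusted p 0.0728 to 0.118 over these 6), and the call of both terms held in all 12 alternatives.

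KLF10 rose and returned. Its level was 18.8 and 14.6 CPM at 0 h, went through 33.6, 54.8, 58.3 and 41.8 CPM and ended at 19.6 CPM. The last library stood just above replicate 1 at 0 h, and the 4 libraries between were above all of these. The peak was 3.48-fold the 0 h mean, and the 42 h level was 1.17-fold (1.09 to 1.26), or 0.23 on the log2 scale and 0.46 with TMM factors. The 0 h libraries differed by 0.36 on library totals. The linear slope was 0.02 ± 0.02 per h (edgeR adjusted p = 0.498), while both terms together gave an adjusted p of 0.000576. Without the 42 h library the linear slope was 0.06 per h and was called (adjusted p = 0.0469).

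KLF13 changed at the end. It stood at 45.7 and 46.4 CPM at 0 h, moved between 52.9, 43.5, 55.1 and 60.4 CPM up to 28 h and reached 134 CPM at 42 h. The 42 h library was far above the other 6. It was 2.92-fold the 0 h mean (2.82 to 3.02), and the slope was 0.04 ± 0.01 per h (log2, SE, edgeR adjusted p = 0.00431). Without the 42 h library the slope was 0.02 per h (adjusted p = 0.121) and both terms gave 0.164, so the call rests on this library, and it was also lost on log2(hours + 1) (adjusted p = 0.0980).

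KLF7 and KLF11 passed neither time test. KLF7, known for roles in neurons, was at 48.0 and 33.8 CPM at 0 h, then at 51.8, 43.4, 42.4 and 48.6 CPM up to 28 h, and at 23.4 CPM in the last library. The 0 h libraries were 0.50 apart on the log2 scale, and the 42 h level was the lowest, 1.75-fold below their mean. The slope was -0.01 ± 0.01 per h (edgeR adjusted p = 0.431), and it changed sign to 0.01 without the 42 h library. Both terms together gave an adjusted p of 0.121, which was 0.0427 when counts were scaled on library totals alone. KLF11 was at 12.7 and 12.5 CPM at 0 h and between 9.89 CPM at 20 h and 19.9 CPM at 28 h afterwards, with a slope of 0.02 ± 0.01 per h (adjusted p = 0.118). KLF9 was at 0.975 and 0.547 CPM at 0 h and at 0.215 to 0.491 CPM later, from 13 to 39 counts a library, so a change was not tested at this depth.

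**Figure D1:**
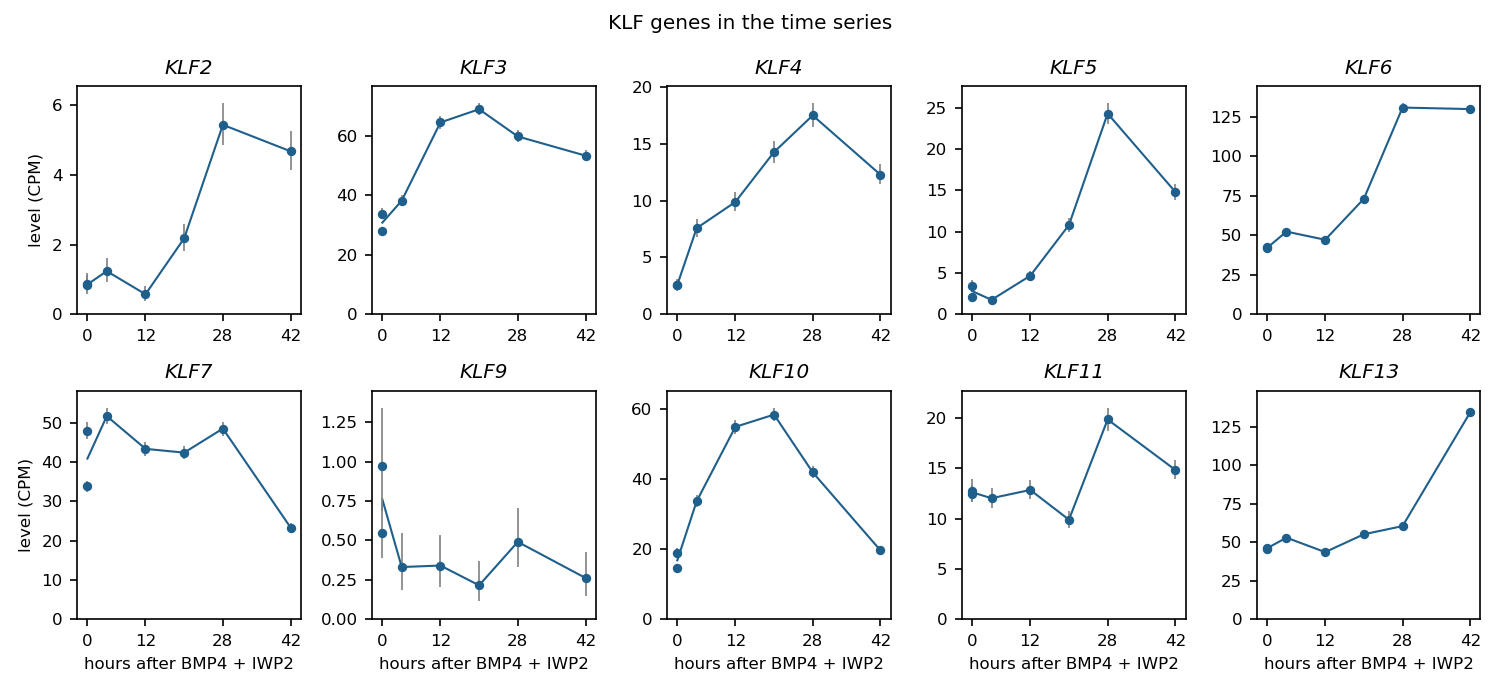
Level of each KLF gene (CPM, linear axis from 0) against hours after BMP4 and IWP2. Points are libraries, bars are 95% counting intervals, and the line passes through the mean of both 0 h libraries. KLF4 reached 7.57 CPM at 4 h, KLF10 peaked at 58.3 CPM at 20 h, and KLF13 reached 134 CPM only at 42 h.

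Against 0 h, 2 of 9 members were past 2-fold at 4 h, both higher (KLF4 and KLF10), beside 7.07% of genes past 2-fold and 6.15% higher. At 42 h 5 were past 2-fold higher (KLF2, KLF4, KLF5, KLF6 and KLF13) and 0 lower, beside 32.5% of genes past 2-fold, 12.1% higher and 20.4% lower. The 1 CPM filter left out KLF9, which went from a 0 h mean of 0.761 CPM to 0.261 CPM (16 counts) at 42 h. KLF2 was kept through its late libraries, so the count of 0 lower depends on the filter. The 4 h and 42 h ratios share the 0 h libraries, and neither has a test, since 4 h and 42 h have 1 library each. The 0 h libraries differed by more than 2-fold for 2.28% of genes. At 42 h KLF3 was also past 2-fold with TMM factors (1.03 on the log2 scale) and DESeq2 size factors (1.02). KLF7 was past 2-fold lower with FPKM (-1.06) and without replicate 2 at 0 h (-1.04). KLF10 at 4 h was 2.005-fold (1.87 to 2.15), close to the limit, and fell below 2-fold with TMM or DESeq2 size factors, a pseudocount of 0.5 CPM, FPKM, or without replicate 2 at 0 h. On library totals the median of all genes at 42 h was -0.25 (log2), against -0.01 with TMM factors, and that of the 9 members was 1.55 and 1.78.

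At 5 h, 5 of the 8 members tested rose with SMAD4 signaling (KLF3, KLF4, KLF5, KLF7 and KLF10) and 1 fell (KLF13), beside 20.9% of 14907 genes called, 10.7% that rose and 10.2% that fell. The predictor was the nuclear SMAD4 level at each LDN dose, divided by the level without LDN. Calls are slopes of log2 level with adjusted p under 0.05 (edgeR quasi-likelihood test, Benjamini-Hochberg adjustment over all genes tested). The slope is thus the log2 change per unit of this predictor, and a positive slope means a lower level with more LDN. The doses covered only part of this unit, so slopes extend past the measured change. For KLF4 the slope was 1.91, while the log2 ratio of 0 nM over 300 nM LDN was 1.37. The median slope was 0.60 for the 8 members and 0.00 for all genes. With limma on FPKM 3 members were called (KLF3, KLF4 and KLF10), and these 3 were called in all 12 alternatives. In the alternative with the untreated library included, its SMAD4 level was assigned as absent and not taken from the study. That library also lacked IWP2 and RI, so the fit with it does not vary the SMAD4 level alone.

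KLF10 had the lowest adjusted p of the 8 members. Its level was 42.0 CPM without LDN, then 35.2, 30.8, 27.9 and 23.5 CPM with 10, 30, 100 and 300 nM, and 21.5 CPM in untreated cells. It fell at every LDN step, as 7.90% of all genes did, and the untreated library was the lowest. The level without LDN was 1.79-fold that at 300 nM (95% counting interval 1.63 to 1.95) and 1.95-fold that of untreated cells (1.73 to 2.20). The slope was 1.13 ± 0.10 (log2, SE, edgeR adjusted p = 6.4e-06).

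KLF4 had the steepest slope of the 8. Its level was 6.65, 5.97, 3.57, 3.86 and 2.56 CPM at the rising LDN doses and 1.60 CPM in untreated cells. The 2 lowest LDN doses stood above the other 3, whose middle steps were not in order. The level without LDN was 2.59-fold that at 300 nM (2.01 to 3.35) and 4.13-fold that of untreated cells (2.72 to 6.26), the 1 member past 2-fold in this last ratio, beside 6.48% of genes past 2-fold higher. The slope was 1.91 ± 0.31 (log2, SE, edgeR adjusted p = 0.000813).

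KLF3 was at 34.1, 34.2, 28.2, 27.4 and 22.6 CPM at the rising LDN doses and at 22.8 CPM in untreated cells. Levels were alike at 0 and 10 nM and lower from 30 nM on, and 300 nM stood with untreated cells. The slope was 0.84 ± 0.13 (log2, SE, edgeR adjusted p = 0.000487), with 1.51-fold more without LDN than at 300 nM (1.37 to 1.66).

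KLF5 and KLF7 passed the test less firmly. KLF5 was at 2.40, 2.41, 1.91, 1.74 and 1.297 CPM at the rising LDN doses, from 43 to 82 counts, and at 1.47 CPM in untreated cells. Its slope was 1.26 ± 0.38 (log2, SE, edgeR adjusted p = 0.0354), and the call was lost in 8 of 12 alternatives, among them without the 0, 10, 100 or 300 nM library (adjusted p 0.0814, 0.0879, 0.0625 and 0.279). KLF7 was at 38.8, 36.1, 35.6, 35.3 and 31.3 CPM, falling at every step, and at 39.6 CPM in untreated cells, above all LDN doses. Its slope was 0.36 ± 0.10 (adjusted p = 0.0256), lost without the 0 or 300 nM library (0.107 and 0.361). It was -0.02 with the untreated library included and -0.02 with limma on FPKM, where the levels were 16.6, 21.2, 20.6, 21.6 and 16.9 FPKM, so the direction of KLF7 depends on the measure.

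KLF13 went the other way. It was at 35.2, 44.5, 42.8, 50.05 and 47.9 CPM at the rising LDN doses and at 41.7 CPM in untreated cells. The library without LDN was the lowest of the 6, and untreated cells lay between it and those with LDN. The slope was -0.60 ± 0.14 (log2, SE, edgeR adjusted p = 0.00866), and the level at 300 nM was 1.36-fold that without LDN. The call was lost without the 0 nM library (slope -0.31, adjusted p = 0.143), with the untreated library included (0.233) and with limma on FPKM (0.157).

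KLF6 and KLF11 did not pass. KLF6 was at 45.3, 46.2, 43.1, 41.3 and 41.0 CPM and at 34.9 CPM in untreated cells, the lowest of the 6, with a slope of 0.24 ± 0.09 (edgeR adjusted p = 0.0765), which was called with the untreated library included (0.0327). KLF11 was at 7.76, 9.36, 8.85, 9.07 and 9.77 CPM and at 10.6 CPM in untreated cells. Its slope was -0.36 ± 0.19 (edgeR adjusted p = 0.208) and 0.05 with limma on FPKM. KLF2 and KLF9 had means under 1 CPM and were not tested. KLF2 was at 0.313 to 0.664 CPM (8 to 22 counts) and KLF9 at 0.174 to 0.392 CPM (4 to 13 counts) over the 6 libraries. The level at 300 nM was 2.12-fold that without LDN for KLF2 and 2.25-fold for KLF9, and the 95% counting intervals of the inverse ratios, 0.217 to 1.02 and 0.158 to 1.24, both include equal levels.

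**Figure D2:**
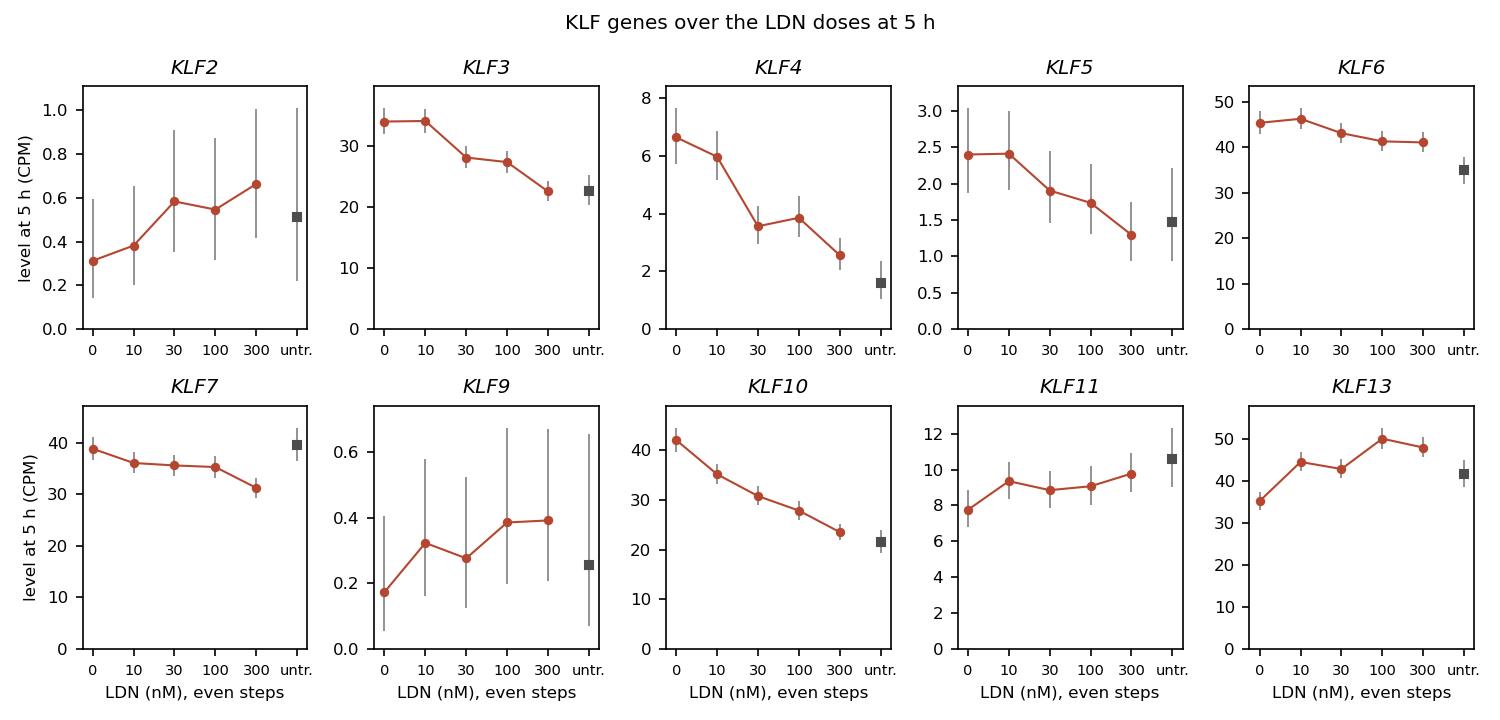
Level of each KLF gene at 5 h (CPM, linear axis from 0) at the LDN doses in even steps, circles, and in untreated cells, a square. Bars are 95% counting intervals. KLF10 fell from 42.0 to 23.5 CPM over the doses and KLF13 was lowest, at 35.2 CPM, without LDN.

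KLF3, KLF4, KLF5, KLF10 and KLF13 passed both the dose trend and the test of both time terms, as 13.6% of 14596 genes tested in both did. KLF3, KLF4 and KLF10 were higher with signaling at 5 h and also higher at 4 h than in both 0 h libraries. KLF5 was higher with signaling at 5 h but lower at 4 h than at 0 h, by 0.68 on the log2 scale, beside a difference of 0.68 between the 0 h libraries. KLF13 was lower with signaling at 5 h and at 4 h above both 0 h libraries, by 0.20 on the log2 scale, and this last value was -0.03 with FPKM.

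By length-normalized level the leading member changed over time. At 0 h KLF7 (16.2 FPKM) and KLF6 (14.5 FPKM) were highest, with 0 h values of 20.5 and 11.9 FPKM for KLF7 and 13.7 and 15.3 FPKM for KLF6, which overlap. KLF10 was highest at 12 h (20.4 FPKM), and KLF6 at 20, 28 and 42 h (28.7, 46.8 and 47.9 FPKM). At 42 h KLF13 was next (28.5 FPKM), and KLF7 and KLF10 were at 7.74 and 7.26 FPKM. The sum over the 10 genes was 60.3 FPKM at 0 h and 136 FPKM at 28 h, of which KLF6 was 24.0% and 34.4%. The lowest member was KLF9 in every library, at 0.200 FPKM or less. In the dose response KLF7 was first without LDN (16.6 FPKM) and KLF10 next (15.7 FPKM), and at 300 nM KLF10 (8.69 FPKM) came after KLF7 and KLF6.

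**Figure D3:**
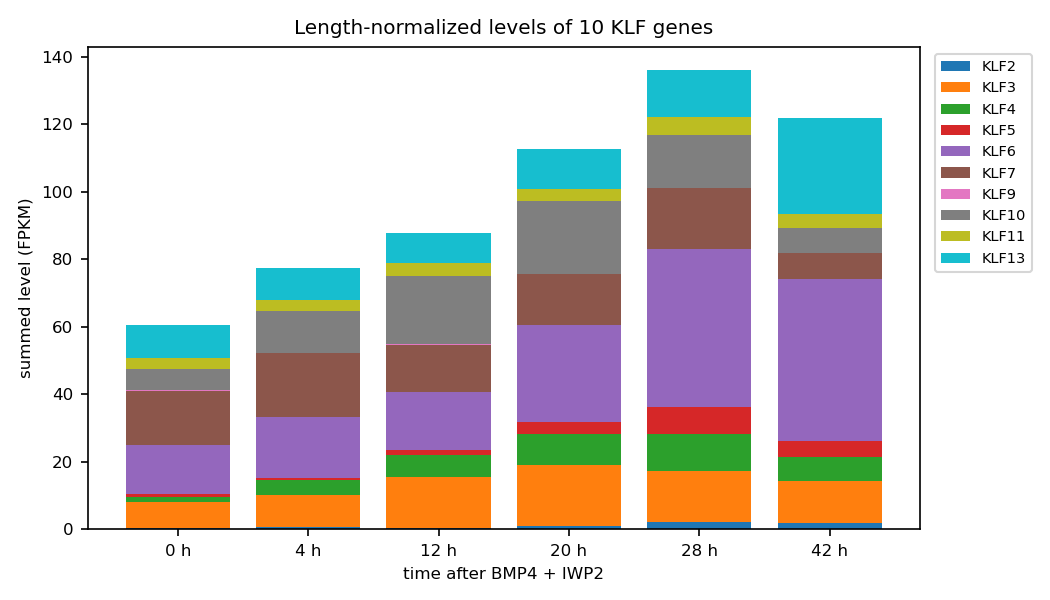
Length-normalized level (FPKM, stacked from 0) of the 10 KLF genes at each time, 0 h being the mean of 2 libraries. The total rose from 60.3 FPKM at 0 h to 136 FPKM at 28 h, and KLF6 made up 34.4% of it at 28 h.

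The other 8 KLF genes and the 9 SP genes, which bind similar GC-rich elements, were counted in the same way. Of 4 other KLF genes tested in the dose response 0 rose and 2 fell with signaling, beside 10.7% and 10.2% of all genes. KLF15, known from metabolic tissues, was at 4.04, 5.27, 6.64, 7.78 and 10.4 CPM at the rising LDN doses and at 9.87 CPM in untreated cells. The slope was -1.89 ± 0.20 (log2, SE, edgeR adjusted p = 2.5e-05). It rose at every LDN step, as 6.62% of all genes did. KLF16 had a slope of -0.67 ± 0.18 (adjusted p = 0.0177), its level being lowest, at 34.2 CPM, without LDN. Over time KLF1 and KLF8 rose and KLF12 fell, of 5 tested (adjusted p 0.0460, 0.0218 and 0.00903), beside 19.2% and 17.5% of all genes. KLF15 was called by both time terms together (adjusted p = 0.00418), with its lowest level, 2.74 CPM, at 12 h and its highest, 11.01 CPM, at 42 h. KLF14, KLF17 and KLF18 were under the 1 CPM filter, with at most 21, 1 and 3 counts in a library, and KLF14 reached 0.343 CPM at 42 h.

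Of 6 SP genes tested with signaling, SP6 and SP3 rose (slopes 1.55 ± 0.38 and 0.39 ± 0.07, adjusted p 0.0120 and 0.00153) and SP8 fell (-1.93 ± 0.57, 0.0303). Among all genes 10.7% rose and 10.2% fell with signaling. Over time SP6 and SP7 rose and SP3, SP4 and SP8 fell, of 7 tested, beside 19.2% and 17.5% of all genes. SP7 had a 0 h mean of 0.0535 CPM and passed the 1 CPM filter only through later libraries, with a peak of 3.08 CPM at 28 h. SP6, an epithelial factor, went from 1.16 and 1.88 CPM at 0 h through 5.10, 9.73, 37.4 and 87.0 to 147 CPM at 42 h, with a slope of 0.17 ± 0.02 per h (adjusted p = 0.000195). This slope was steeper than that of any of the 9 members tested.

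**Figure D4:**
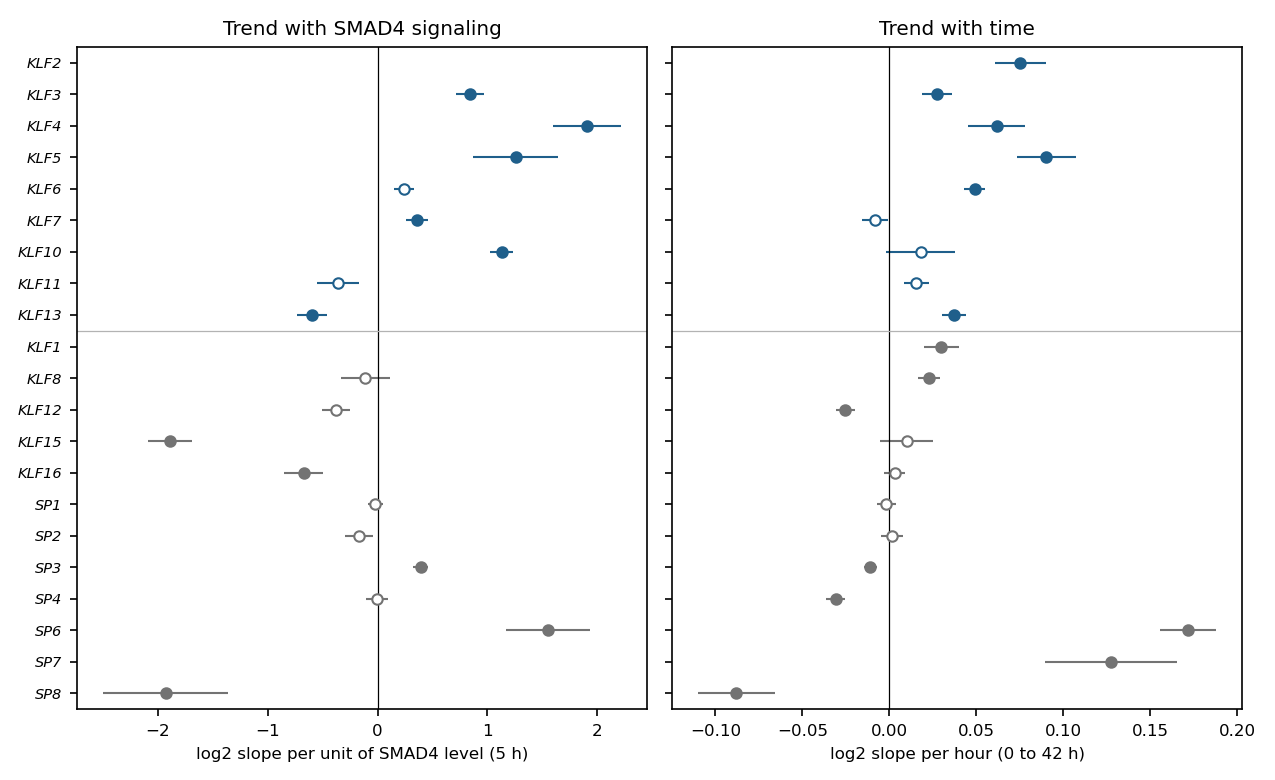
Slope of log2 level on SMAD4 level at 5 h (left) and on hours (right) for the KLF members (blue), other KLF genes and SP genes (grey). Points are slopes, bars are standard errors, and filled points had an adjusted p under 0.05 (edgeR). KLF15 had a slope of -1.89 and KLF4 of 1.91 with SMAD4 level.

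Genes of proteins that KLF factors work with were counted in each trend beside the shares of all genes (20.9% with signaling, 36.7% with time). Of 9 corepressor and coactivator genes 3 were called with signaling and 3 with time. KAT2B (an acetyltransferase) rose with signaling (1.71 ± 0.33, edgeR adjusted p = 0.00246) and with time (0.06 ± 0.01 per h, 0.00249), from 2.69 and 2.10 CPM at 0 h to 15.0 CPM at 42 h. CTBP1 and SIN3A fell with signaling by slopes of -0.30 and -0.33 (adjusted p 0.00547 and 0.00285), and CTBP2 and SIN3A fell with time (0.00772 and 0.0416). SIN3A was at 201 and 149 CPM at 0 h and at 93.7 CPM at 42 h. Of 6 ubiquitin ligase genes that act on KLF proteins 2 were called in each trend. FBXW7 (0.57 ± 0.11, adjusted p = 0.00217) and WWP1 (0.28 ± 0.08, 0.0259) rose with signaling, and SMURF1 and VHL rose with time (0.00366 and 0.0312). Of 9 noncoding neighbours and gene copies 7 were found and 1, KLF3-AS1, was high enough to be tested. It was at 0.738 and 1.35 CPM at 0 h and peaked at 3.55 CPM at 20 h, the same time as KLF3, with an adjusted p of 0.0117 for both time terms. Its exons overlap those of KLF3 on the opposite strand, and the part of shared reads in this peak was not tested. KLF3-AS1 was called by neither the dose trend (slope -0.13, edgeR adjusted p = 0.889) nor the linear time trend (0.433).

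The 2 members with the widest range over time were KLF5 and KLF2, and the genes with the most similar profile were sought among 9581 genes, by the Pearson r of log2 levels over the 13 libraries centred within each experiment. For KLF5 these were NCOA4, B2M and ZFAND3, each with r = 0.958. For KLF2 they were FREM2 (0.949), TMCO3 (0.937) and CDC14A (0.937). The points share libraries and the time course, and no test applies. B2M was at 19.7 CPM at 0 h and 73.0 CPM at 28 h, and fell from 65.1 to 39.3 CPM between 0 and 300 nM LDN.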

How the data were processed

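The 13 bulk RNA-seq libraries comprise a time series (rRNA depletion) and a dose response (polyA selection). Per the study's methods the authors used Cutadapt 2.3 for trimming, STAR 2.7.8a for alignment to GRCh38 and RSEM 1.3.3 for counting. The ENSEMBL release is not given in the sources used here. The deposited tables hold RSEM expected counts per gene, given as whole numbers without scaling. Values in FPKM, normalized by the authors for gene length and depth, were used for levels between genes and as an alternative.

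CPM was computed on library totals. Trends were fitted to all genes averaging 1 CPM or more in the libraries fitted, in edgeR 4.0.16 with TMM factors and its quasi-likelihood test (Benjamini-Hochberg at 0.05). No time after 0 h and no dose had a replicate, so scatter about the fitted line was the error. The SMAD4 level per dose was taken from the study's source data. Ratios used CPM + 0.01 and a limit of 2-fold, without a test. Counting intervals (95%) cover counting error only, and the floor of 3 counts was 0.0421 to 0.192 CPM. Alternatives used DESeq2 1.42.0, limma 3.58.1 on log2(FPKM + 0.1), other scalings, covariates, pseudocounts and filters, and each library left out. R 4.3.3 and Python 3.11.15 were used. All members were named, with listed genes past a trend's threshold and the 3 genes most like each of the 2 members of widest range. The members and lists were chosen with earlier results of these data known. The fits were checked on simulated counts with known changes. These had the same dispersion for all genes and changes of exactly the fitted form. The check therefore does not cover larger scatter or other shapes of change. Loci came from GENCODE 44 and promoters from RefSeq (GRCh38.p14), with a table entry for 8 of the 10 members, and windows of KLF3 and KLF10 were not used here.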

Additional observations from a re-analysis of the deposited data

How the results depend on the processing

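No paired analysis was possible because only 0 h has more than 1 library. The dose trend called 3109 genes and 6 members. With limma on log2(FPKM + 0.1) it called 1073 and 3, with slopes of -0.024 for KLF7 and 0.0498 for KLF11, and with the untreated library included KLF7 was -0.0228. Leaving out each library gave 2058 to 2942 genes and 3 to 6 members, fewest without 0 nM LDN. The linear time trend called 5865 genes, 3413 on log2(hours + 1), and 3259 to 6602 with each library left out, the lowest without 42 h, where the KLF7 slope, -0.014 to 0.0073 over these fits, was highest. Both time terms called 7625 genes, and 3736 to 8422 with a library left out, the lowest again without 42 h. Members past 2-fold at 4 h were 2, and 1 with TMM factors, DESeq2 size factors, a pseudocount of 0.5 CPM or FPKM, and 1 to 2 with a 0 h replicate left out. Without a filter 10238, 16998 and 9551 genes passed 2-fold at 4 h, at 42 h and without LDN over untreated, against 1130, 5185 and 1275. Of genes called by the time trend 52.4% rose, against 34.3% on library totals and 35.9% with limma and of those called by the dose trend 51.3% rose, against 63.0% with limma. Of those past 2-fold at 42 h 37.2% were higher, against 50.4% with TMM factors. The causes were not tested. Of 321 values for members in the 3 trends under an alternative, 288 kept the side of the threshold and, where the test gives one, the direction. The test of both time terms gives no direction. Levels near the 1 CPM filter (KLF2, KLF9) and the lack of replicates limit what could be detected.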
